A study of Rattus norvegicus with 8 samples.

Results

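The mRNAs of the 5 oxidative phosphorylation complexes of mitochondria were compared between secretory-stage and maturation-stage enamel organs of the rat incisor. The members were all probes whose array symbol begins with Nduf (complex I), is Sdha to Sdhd (complex II), or begins with Uqcr (complex III), Cox4 to Cox8 (complex IV) or Atp5 (complex V). This rule found 64 of 22523 probes, which carry 63 gene symbols, since Ndufb4 has a pair of probes. Of the 64 probes, 31 were assigned by symbol to complex I, 4 to complex II, 4 to complex III, 13 to complex IV and 12 to complex V. These include Ndufaf1, Cox4nb and Atp5s, which are no subunits, and probes whose gene IDs now belong to other genes or pseudogenes. Each of 4 Wistar rats, males of the Hannover stock by the study's methods and 4 weeks old, gave 1 secretory-stage and 1 maturation-stage sample. The methods describe each sample as the cell layer exposed when bone was lifted from the freeze-dried incisor, made up mostly of enamel organ, so other cells were present too. Each of the 8 RNA samples was hybridized to its own Illumina RatRef-12 array, on which many beads carry the same probe and the deposited value is their mean brightness. For maturation replicates 2 to 4, 1 of the labels names the secretory stage against the title, description and tissue labels, which were followed here.

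Ameloblasts, the enamel-forming cells of this layer, first secrete a protein matrix and then, in the maturation stage, remove it while ions are moved to the growing crystals. Oxidative phosphorylation feeds such work with ATP. Complex I (NADH dehydrogenase) and complex II (succinate dehydrogenase) pass electrons to coenzyme Q, complex III passes them to cytochrome c, and complex IV (cytochrome c oxidase) passes them to oxygen. Complexes I, III and IV pump protons, and complex V (ATP synthase) uses the proton gradient to make ATP. Most subunits are encoded in the nucleus and the remainder in mitochondrial DNA. The array listed 0 probes on the mitochondrial genome, so the results concern nuclear genes.

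The stage markers had the direction of the labels. Klk4, Slc24a4 and Car6, genes of maturation-stage ameloblasts, were higher by 5.07 to 7.57 on the log2 scale in the maturation stage, Enam of secretory-stage ameloblasts fell by 4.98 and their Mmp20 fell by 4.03, Ambn fell by 0.36, Amelx (-0.53) did not pass (limma adjusted p 0.0555), and 8 of 8 arrays were nearer to their own stage. In a limma fit with a block for each rat, Amelx was called lower (adjusted p 0.0321), and it was lower in every rat without overlap of the stages. Markers of other cell types were counted as well, against 12.8% of all probes that rose and 14% that fell. Among probes detected on all 8 arrays, 24.1% rose and 29.9% fell. The share that rose was 81.8% of macrophage and leukocyte, 33.3% of endothelial, 33.3% of osteoclast, 26.3% of muscle and 14.3% of odontoblast and osteoblast probes. Of 11 probes for macrophage and leukocyte markers, 9 were higher in maturation and 0 lower, and their deposited signals summed to 4250 to 5099 on secretory and 14075 to 16984 on maturation arrays. Of 7 odontoblast and osteoblast probes 1 rose, Ibsp by 1.95, and 1 fell, Dspp, which was detected on 4 of 4 secretory and 0 of 4 maturation arrays, while Dmp1 (0.98) was higher in 4 of 4 rats without a call, and the 7 summed to 8164 to 22452 and 16684 to 21930. Of 6 endothelial probes 2 rose and 0 fell, with sums of 4242 to 5324 and 7427 to 7981. A Tie1 probe (0.42) did not pass (limma adjusted p 0.0669) but was called higher with the rat as a block (adjusted p 0.00530). Of 3 osteoclast probes 1 rose (Ctsk), with sums of 5417 to 7521 and 15058 to 20520, and Calcr was undetected on every array. Of 4 erythroid probes 0 were called with limma, the lowest unadjusted p values being 0.0161 (Alas2) and 0.0366 (Epb4.2), both lower in maturation. Of 19 probes for skeletal muscle, a tissue rich in mitochondria, 5 rose and 2 fell, and their signals summed to 2197 to 2582 in secretory and 2584 to 3990 in maturation samples. The larger muscle calls were those of Ryr1 (1.97 for 1 of its probes), Mybpc2 (0.64) and Actn3 (-1.57), Acta1, Mlc3, Tnnt3 and Tnnc2 were detected on all 8 arrays without a call, Tnnt3 (0.80) was called with the rat as a block (adjusted p 0.00917), and Myh4 and Ckmt2 were undetected on every array. Another 3 of the 7 muscle calls, those of LOC691644 (Myh2), another Ryr1 probe and Tnnt1, came from probes undetected on all 8 arrays and were lost with the rat as a block (adjusted p 0.0675, 0.0802 and 0.0708). The part of these other cells in the results was not tested, and on bulk RNA more cells of a type and more RNA per cell cannot be told apart. Beyond this, deposited signals added up to 11881691 to 12046793 per secretory and 13355073 to 16122665 per maturation array, and the number of arrays limits the precision.

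The oxidative phosphorylation mRNAs were mostly higher in the maturation stage, by small amounts. Differences are given as maturation minus secretory on the normalized log2 scale, and calls were made at an adjusted p under 0.05 (limma with Benjamini-Hochberg adjustment over all probes). Of the 64 members, 37 rose, 2 fell and 25 did not pass. Among all probes, 12.8% rose and 14% fell. The median difference of the members was 0.27, a fold of 1.21, against -0.013 over all probes. With the study's 1.8-fold threshold added, 1 member remained, Ndufb2, against 4.6% of all probes that were higher by this rule. The stages did not overlap for 38 members that were higher and 2 that were lower, and 13.1% of all probes were higher without overlap. A further 21 probes match the rule only by their gene's current symbol, and among these 2 rose (9.52%) and 2 fell, so that the share that rose was not above that of all probes.

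Most members were well detected. Of the 64, 56 were detected (detection p below 0.05) on all 8 arrays, and all 39 calls lay among these 56, whose median difference was 0.32. Over all 9156 probes so detected, 24.1% rose, 29.9% fell and the median difference was -0.070. At a mean normalized log2 signal of at least 10, 37 of 51 members rose (72.5%), with a median of 0.34, against 27.6% of all probes at this level, with a median of -0.045. The 8 members not detected on all 8 arrays were Atp5g3, Cox6a2, Cox6b, Cox6c, Cox6c1, Cox8h, Ndufs6 and a probe of Ndufb4, and none of them was called. The gene IDs of Ndufs6 and Cox6c1 now belong to pseudogenes and that of Cox6b to Upk1a in RefSeq, so their probes say little of the subunits.

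The direction was shared by the 4 rats. Of the 56 detected members, 45 were higher in the maturation sample of rat 1, 49 in rat 2, 51 in rat 3 and 47 in rat 4, and the rats' median differences were 0.23, 0.42, 0.32 and 0.30. In all 4 rats, 42 members (75%) were higher and 2 (3.57%) lower. Over the 9156 probes detected on all arrays, 44.5 to 45.5% were higher in a given rat, 29.8% were higher in all 4 rats and 38.4% lower. The size depends on how the arrays were scaled, and the maturation arrays were brighter as a whole. Without normalization between arrays 52 members were higher and 0 lower, with medians of 0.63 for the members and 0.13 for all probes, of which 29.3% rose and 3.58% fell. Scaling each array to a common median gave 46 higher and 2 lower members and a median of 0.43, against -0.072 for all probes, of which 20.4% rose and 14.5% fell.

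**Figure D1:**
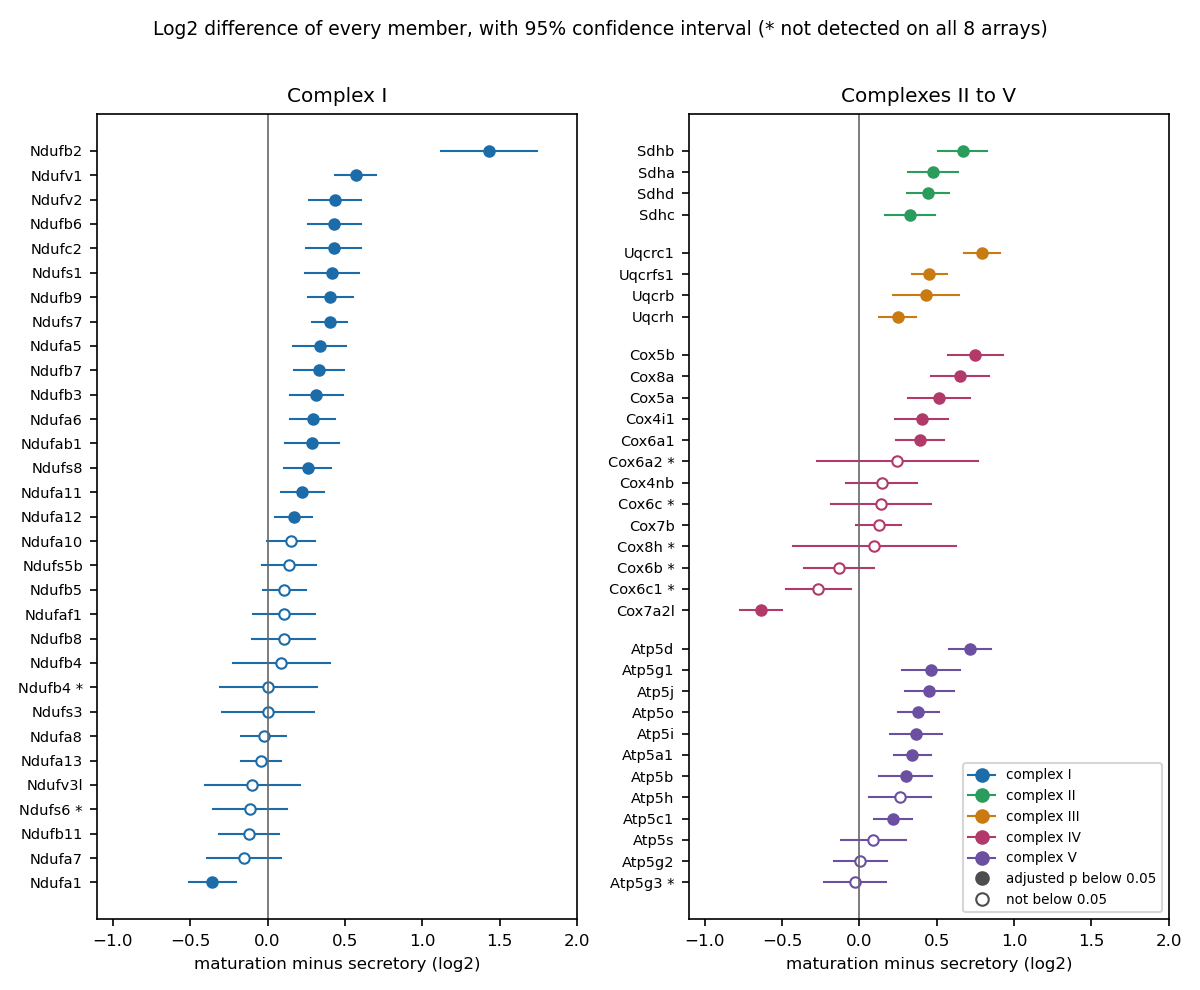
Log2 difference (maturation minus secretory) of each of the 64 member probes on the x axis, by complex, with points for the fitted difference from 4 arrays a stage and lines for the 95% confidence interval. Filled points have an adjusted p below 0.05 (37 higher, 2 lower) and a star marks the 8 members not detected on all 8 arrays.

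By complex, every measured probe of complexes II and III rose, and complexes I, IV and V were mixed. Of complex I, 16 rose, 1 fell and 14 did not pass, with a median of 0.17. Each of the 4 probes of complex II and of the 4 of complex III rose, with medians of 0.46 and 0.44. Of complex IV, 5 rose, 1 fell and 7 did not pass, with a median of 0.15, or 0.40 over the 8 probes detected on all 8 arrays. Single arrays moved the median of the 13, which was 0.23 without maturation replicate 1, 0.22 without maturation replicate 3 and 0.25 without secretory replicate 4. Of complex V, 8 rose, 0 fell and 4 did not pass, with a median of 0.32. When each detected member was taken relative to its own mean over the 8 arrays, the median of every complex was higher in maturation in 4 of 4 rats. The difference within a rat ran from 0.17 to 0.31 for complex I, 0.38 to 0.58 for complex II, 0.32 to 0.54 for complex III, 0.36 to 0.46 for complex IV and 0.28 to 0.38 for complex V. Whether the complexes differ from each other was not tested.

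**Figure D2:**
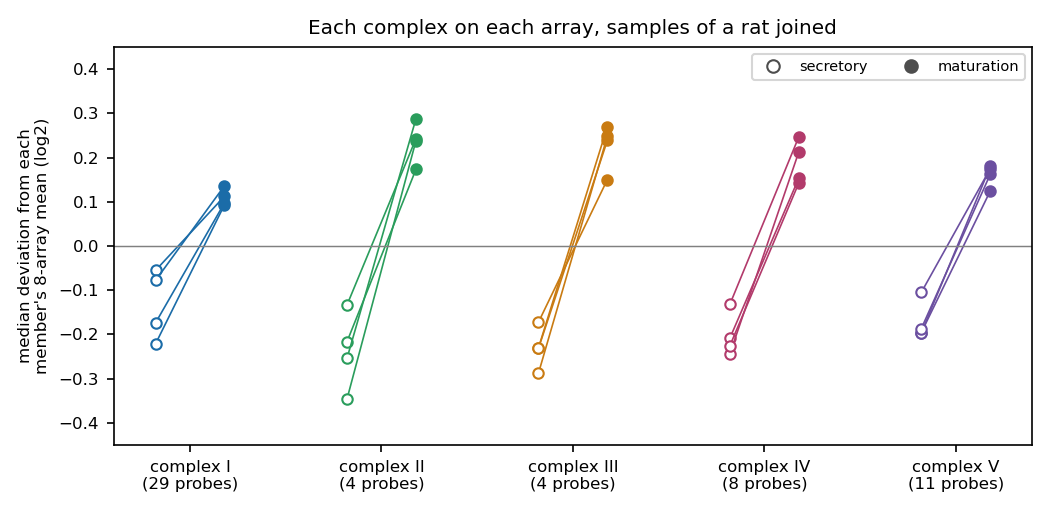
Median over the detected members of each complex of the deviation from the member's own 8-array mean (log2, y axis), with open points for secretory and filled points for maturation arrays and lines that join the samples of a rat. Every line rises, from deviations of -0.35 to -0.055 in the secretory to 0.093 to 0.29 in the maturation stage.

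The promoters of several members hold letters that factors of nuclear respiratory genes are known to bind. Promoter sequences came from RefSeq on the GRCr8 assembly, by gene ID, for 52 of the members' genes, and the 250 bases before the start of the transcript were searched on both strands. The NRF1 motif GCGCANGCG was in 13 of the 52 (25%), against 5.53% of 27457 promoters, and the GABP motif CCGGAAGT in 6 (11.5%), against 3.29%. The motifs TCAAGGTCA of the ERR alpha receptor and AAGATGGCG of YY1 were each in 1 of the 52, against 0.368% and 0.736% of all. In total 21 of the 52 held a motif, and no promoter held motifs of different factors. The members' windows were richer in G and C, at a median of 57.2% against 52%, and the part of base composition in these shares was not tested. Of the 34 genes with a promoter whose probe rose, 8 held the NRF1 and 6 the GABP motif. The last 120 bases before the start are shown for 8 members, with motif letters in capitals, chosen with these results known to cover every complex and members that rose, did not pass or fell. Promoters that hold a motif were preferred, so 7 of the 8 have one and the set does not stand for the 52.
Sdha (chr1:30764433-30764552, + strand): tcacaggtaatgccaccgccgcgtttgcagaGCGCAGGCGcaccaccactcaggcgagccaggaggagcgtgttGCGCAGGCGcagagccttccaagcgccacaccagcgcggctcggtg
Uqcrc1 (chr8:118468103-118468222, + strand): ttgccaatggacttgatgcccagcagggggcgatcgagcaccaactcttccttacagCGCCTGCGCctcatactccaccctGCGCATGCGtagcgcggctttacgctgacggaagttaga
Atp5o (chr11:44657484-44657603, - strand): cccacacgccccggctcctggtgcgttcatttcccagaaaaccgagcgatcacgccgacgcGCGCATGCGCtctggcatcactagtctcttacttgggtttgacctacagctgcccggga
Cox5b (chr9:46417717-46417836, + strand): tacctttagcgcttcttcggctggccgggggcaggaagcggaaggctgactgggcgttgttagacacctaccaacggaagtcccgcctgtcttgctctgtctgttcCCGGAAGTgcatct
Cox8a (chr1:213833624-213833743, - strand): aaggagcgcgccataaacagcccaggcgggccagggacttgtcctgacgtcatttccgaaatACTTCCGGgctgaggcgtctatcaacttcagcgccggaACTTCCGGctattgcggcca
Atp5g2 (chr7:135678219-135678338, - strand): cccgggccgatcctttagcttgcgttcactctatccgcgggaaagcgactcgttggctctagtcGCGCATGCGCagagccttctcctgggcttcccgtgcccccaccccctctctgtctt
Cox7a2l (chr6:16936454-16936573, + strand): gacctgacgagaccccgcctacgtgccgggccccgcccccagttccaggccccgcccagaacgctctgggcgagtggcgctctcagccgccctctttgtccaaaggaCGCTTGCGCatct
Ndufb2 (chr4:69334187-69334306, + strand): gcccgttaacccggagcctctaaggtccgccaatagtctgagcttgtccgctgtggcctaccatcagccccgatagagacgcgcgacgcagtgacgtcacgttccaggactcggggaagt
The capitals are the NRF1 motif in Sdha, Uqcrc1, Atp5o, Atp5g2 and Cox7a2l and the GABP motif in Cox5b and Cox8a. Sdha and Uqcrc1 each hold 2 NRF1 motifs and Cox8a 2 GABP motifs. In Atp5o and Atp5g2 the capitals read as the motif on both strands. The NRF1 motif stands before Sdha (0.48), Uqcrc1 (0.79) and Atp5o (0.38), which rose, before Atp5g2 (0.0071), which did not pass, and, ending 5 bases before the start, Cox7a2l (-0.63), which fell. Ndufb2, the member with the largest difference, had none of the 4 motifs in this window, which says only that these letters are not there.

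The largest difference in complex I, and among all members, was that of an accessory subunit. Ndufb2, a small accessory subunit of the membrane arm, measured 10.66, 10.50, 10.64 and 10.59 on secretory arrays 1 to 4 and 11.63, 12.40, 12.04 and 12.03 on maturation arrays 1 to 4 (normalized log2 signal). The lowest maturation value lay well above the highest secretory one, and the maturation samples spread more, with an SD of 0.31 against 0.074. The difference was 1.43 (SE 0.14, limma adjusted p 4.22e-05), a fold of 2.69, and it lay between 0.97 and 1.90 within the rats. The next largest in complex I was Ndufv1, the subunit that binds NADH and flavin, at 10.27, 10.37, 10.25 and 10.34 in secretory and 10.98, 10.83, 10.83 and 10.86 in maturation samples. Its stages did not overlap, and the difference was 0.57 (SE 0.060, limma adjusted p 7.65e-05).

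The core subunits hold the flavin and the iron-sulfur clusters that lead electrons to coenzyme Q. Of the 6 nuclear core subunits on the array, 5 rose, with a median of 0.41 over the 6. Beside Ndufv1 these were Ndufv2 (0.44), Ndufs1 (0.41), Ndufs7 (0.40) and Ndufs8 (0.26). The exception was Ndufs3, at 11.58, 11.48, 11.44 and 11.43 in secretory and 11.80, 11.27, 11.20 and 11.67 in maturation samples, where maturation samples lay both above and below every secretory sample, for a difference of 0.0030 (95% interval -0.29 to 0.30). The maturation replicates highest in Ndufs3, 1 and 4, were also the highest in Enam, at 9.08 and 8.22 against 5.17 and 5.53 in replicates 2 and 3, and the part of this split in the Ndufs3 values was not tested.

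The accessory subunits, which surround the core and hold the complex together, were divided. Of 24 accessory probes 11 rose, 1 fell and 12 did not pass, with a median of 0.14. Beside Ndufb2, the larger rises were those of Ndufb6 (0.43), Ndufc2 (0.43) and Ndufb9 (0.40). Ndufa5, Ndufb7, Ndufb3, Ndufa6, Ndufab1, the acyl carrier protein of mitochondria, Ndufa11 and Ndufa12 rose by 0.17 to 0.34. Ndufa12 (0.17, adjusted p 0.0431) lost its call with the rat as a block (adjusted p 0.102), with the detection filter and with any of the 8 arrays left out. Ndufa11 lost its call without maturation replicate 4 or secretory replicate 1 or 3, Ndufab1 without maturation replicate 1 or 2 or secretory replicate 2 or 3, and the core subunit Ndufs8 without maturation replicate 4. The members that did not pass ranged from -0.15 (Ndufa7) to 0.15 (Ndufa10) and included Ndufa8, Ndufb4, Ndufb5, Ndufb8, Ndufb11, Ndufs5b and Ndufv3l. Among them Ndufa13, also described as a cell death regulator, measured 13.54 ± 0.055 in secretory and 13.49 ± 0.064 in maturation samples (mean ± SD, n = 4). For Ndufa13 the 95% interval of the difference was -0.17 to 0.088.

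Ndufa1, an accessory subunit encoded on the X chromosome and needed for assembly, was the 1 member of complex I called lower. It measured 12.87, 12.63, 12.66 and 12.73 in the secretory and 12.31, 12.42, 12.32 and 12.41 in the maturation stage, without overlap. It fell by 0.36 (SE 0.068, limma adjusted p 0.00300) and was lower in 4 of 4 rats. This call rests on the scaling, because the deposited signals of the stages overlapped, and without normalization between arrays the difference was 0.015 (adjusted p 0.917). Ndufaf1, which helps to assemble the complex and is no subunit of it, did not pass, at 0.11 (adjusted p 0.501).

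Complex II, the only complex without mitochondrially encoded subunits, rose in all of its parts. Sdhb, the iron-sulfur subunit, measured 11.55, 11.49, 11.61 and 11.63 in secretory and 12.13, 12.21, 12.39 and 12.23 in maturation samples. Every maturation value lay above every secretory value, and the difference was 0.67 (SE 0.070, limma adjusted p 7.25e-05). Sdha, the flavin subunit that oxidizes succinate, went from 10.63 ± 0.13 to 11.11 ± 0.038 (mean ± SD, n = 4), a difference of 0.48. The membrane anchors, which bind coenzyme Q, rose by 0.44 (Sdhd) and 0.33 (Sdhc). The catalytic pair had a median of 0.57 and the anchors one of 0.38, and this gap was not tested.

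In complex III the differences ranged from 0.25 to 0.79. Uqcrc1, a core protein on the matrix side, was the tightest measurement among the large differences, at 11.36, 11.34, 11.34 and 11.33 in secretory and 12.11, 12.08, 12.19 and 12.16 in maturation samples. The secretory SD was 0.014 and the maturation SD 0.051, so the difference of 0.79 (SE 0.052, limma adjusted p 3.35e-06) was many times the spread. Uqcrfs1, the Rieske iron-sulfur protein, rose by 0.45 and Uqcrb, which lies near a coenzyme Q site, by 0.43. Uqcrb was the least even across the rats, with differences of 0.061 to 0.71. Uqcrh, the hinge protein that helps cytochrome c to dock, rose by 0.25 (SE 0.053) from 14.03 ± 0.023 to 14.28 ± 0.053 (mean ± SD, n = 4). The cytochrome c1 subunit, Cyc1, lies outside the naming rule and is described with cytochrome c.

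In complex IV 5 of 13 probes rose, and it held the largest fall among the members. Cox5b, the subunit that binds zinc, measured 11.88, 11.65, 11.56 and 11.69 in the secretory and 12.41, 12.56, 12.46 and 12.36 in the maturation stage. The stages did not overlap, and Cox5b rose by 0.75 (SE 0.079, limma adjusted p 7.66e-05). Cox8a rose by 0.65, with within-rat differences of only 0.62 to 0.67, Cox5a by 0.51, Cox4i1 by 0.40 and Cox6a1 by 0.39. Cox4i1, Cox6a1 and Cox8a are the forms of their subunits that most tissues use. Cox7b, a small membrane subunit encoded on the X chromosome, measured 13.38, 13.28, 13.17 and 13.39 in secretory and 13.46, 13.39, 13.42 and 13.45 in maturation samples, so that the stages overlapped. Its difference of 0.13 did not pass (95% interval -0.019 to 0.27, adjusted p 0.211), although it was positive in 4 of 4 rats. Without normalization between arrays Cox7b was called higher.

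The heart and muscle forms of complex IV subunits were near background. Cox6a2 was undetected on every secretory array and detected on 1 maturation array, with 4.79, 4.56, 4.90 and 4.73 in secretory and 4.69, 4.61, 4.87 and 5.79 in maturation samples. Maturation replicate 4 stood above the other 7 samples. Cox8h, whose current symbol is Cox8b, was also highest in that sample, with 5.32, 4.99, 4.73 and 4.90 in secretory and 4.79, 5.01, 4.70 and 5.82 in maturation samples, and neither gene passed. Skeletal muscle markers were high in the same sample: Acta1 measured 8.35 and Ckm 7.68 there, against 5.15 to 6.36 and 4.93 to 5.51 in the other maturation samples. Among secretory samples Acta1 ranged from 6.07 to 7.74 and Ckm from 4.99 to 7.03, both highest in replicate 4, in which Cox6a2 and Cox8h were within the range of the other secretory samples. The part of muscle in these values was not tested. No probe was found under the array or current symbols of Cox4i2, Cox7a1, Cox7a2 or Ndufa4l2.

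Cox7a2l, which links complexes III and IV in supercomplexes and is also known as SCAF1, fell. It measured 12.33, 12.35, 12.26 and 12.30 in secretory and 11.76, 11.71, 11.56 and 11.68 in maturation samples. The stages were well apart, the difference was -0.63 (SE 0.060, limma adjusted p 3.76e-05), and the 4 rats ranged only from -0.70 to -0.58. On the deposited scale the signals were 4592, 4621, 4318 and 4436 in secretory and 4397, 3924, 3150 and 3938 in maturation, with maturation replicate 1 inside the secretory range, and without normalization between arrays the difference was -0.24 (adjusted p 0.101). Cox4nb, which shares a name with Cox4i1 as its neighbour and encodes a membrane protein complex subunit of the endoplasmic reticulum, did not pass (0.15, adjusted p 0.387). With median scaling and without normalization between arrays Cox4nb was called higher.

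**Figure D3:**
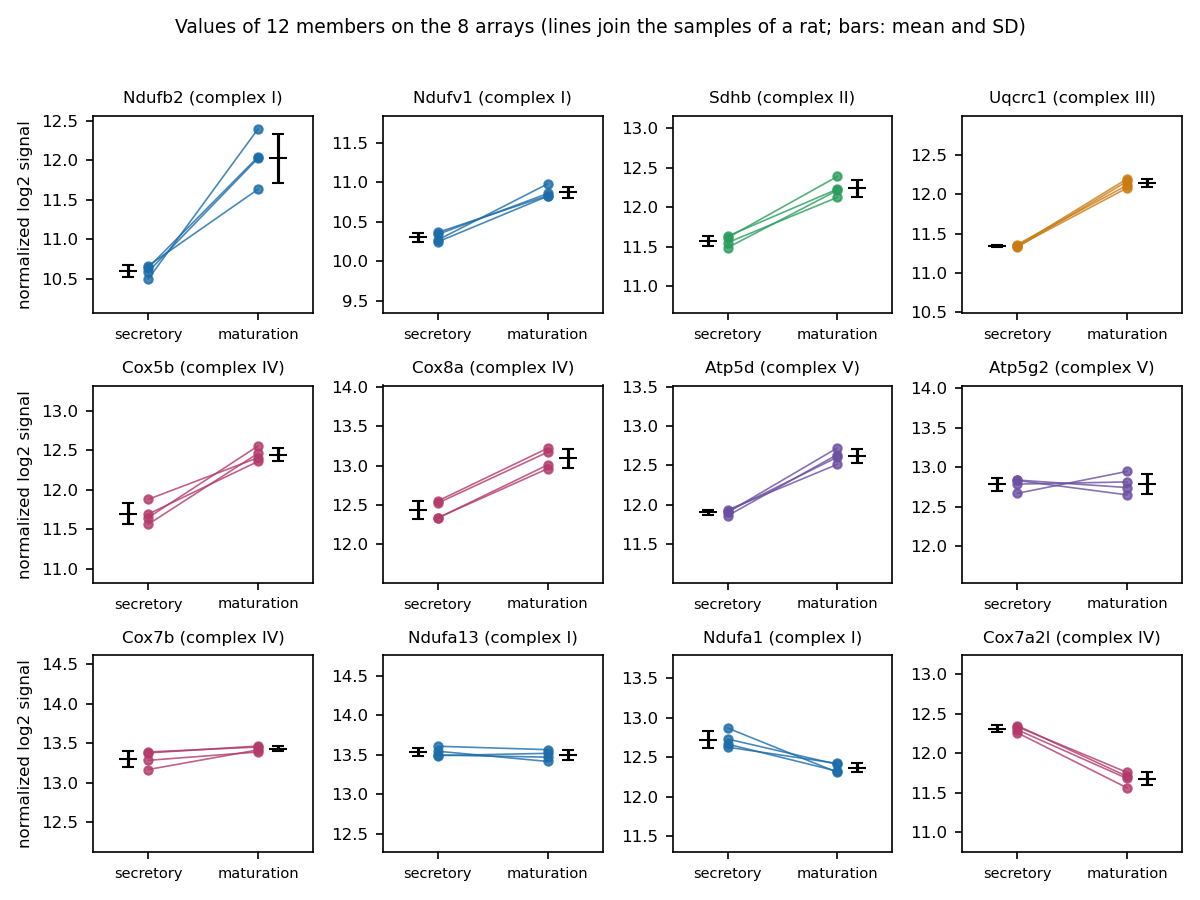
Normalized log2 signal of 12 members on the 8 arrays (y axis, each panel spanning the same 2.5 log2 units), with points for arrays, lines that join the samples of a rat, and bars for the mean and SD of 4 arrays. Ndufb2, Ndufv1, Sdhb, Uqcrc1, Cox5b, Cox8a and Atp5d rise in every rat, Atp5g2 and Ndufa13 cross or stay level, and Ndufa1 and Cox7a2l fall in every rat.

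In complex V the catalytic head rose in all measured parts. Atp5d, the delta subunit of the F1 rotor stalk, measured 11.91, 11.86, 11.94 and 11.92 in the secretory and 12.72, 12.64, 12.51 and 12.61 in the maturation stage. Its difference was 0.72 (SE 0.060, limma adjusted p 1.69e-05), without overlap. The alpha and beta subunits, which form the catalytic head, rose by 0.34 (Atp5a1) and 0.30 (Atp5b), and the gamma shaft Atp5c1 by 0.22. In the stalk and membrane part, Atp5j rose by 0.45, Atp5o, which joins the head to the outer stalk, by 0.38, and Atp5i by 0.36. Atp5h did not pass (0.26, adjusted p 0.0583) but was called with the rat as a block (adjusted p 0.0440), and its gene ID now belongs to a pseudogene.

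The c subunit, whose ring turns as protons pass, is encoded by 3 genes that give the same mature protein. Atp5g1 measured 13.01, 13.08, 13.01 and 13.09 in secretory and 13.31, 13.49, 13.70 and 13.55 in maturation samples and rose by 0.46 (SE 0.083, limma adjusted p 0.00214). Atp5g2 measured 12.83, 12.79, 12.67 and 12.84 in secretory and 12.65, 12.81, 12.95 and 12.74 in maturation samples, with full overlap and a difference of 0.0071 (95% interval -0.16 to 0.18). Atp5g3 was detected on 2 arrays of each stage, and its probe gives no usable level. The 95% interval of Atp5g1, 0.28 to 0.65, and that of Atp5g2 did not overlap, and the gap itself was not tested. Atp5s, an Atp5 name for a factor that is no subunit of the enzyme, did not pass (0.091).

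Many members were among the brightest probes of the array, where a scanner or bead may reach its limit. The deposited table holds no flag for saturation. A signal in the top 1% of its array was taken as bright, from 8131 to 8568 on secretory and 9126 to 11256 on maturation arrays. By this measure 7 members were bright on all 8 arrays, namely Atp5a1, Atp5b, Atp5o, Cox6a1, Cox7b, Ndufa13 and Uqcrh, and 13 on 1 array or more. Uqcrh had deposited signals of 16156, 15648, 15407 and 16604 in secretory and 21985, 20166, 19336 and 21820 in maturation samples, and Atp5b signals of 15275, 14895, 15524 and 14824 in secretory and 24210, 18455, 18076 and 21147 in maturation samples. The brightest member of an array reached 47.4 to 50.1% of the array's highest signal in the secretory and 68.8 to 71.5% in the maturation stage. There were 70 to 75 brighter probes on each secretory and 25 to 41 on each maturation array. Whether the signals of bright members were compressed, and to the same degree in both stages, was not tested.

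Of the 7 members bright on all arrays 5 rose, and their median difference was 0.30. Among all 153 probes bright on 8 arrays, 21.6% rose and the median was -0.11. Over the 56 detected members, level and difference had a Spearman rho of 0.14 and a Pearson r of 0.20, as a description across genes that share the same arrays. All members together made up 2.13 to 2.29% of the deposited signal of a secretory array and 2.67 to 2.72% of that of a maturation array.

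**Figure D4:**
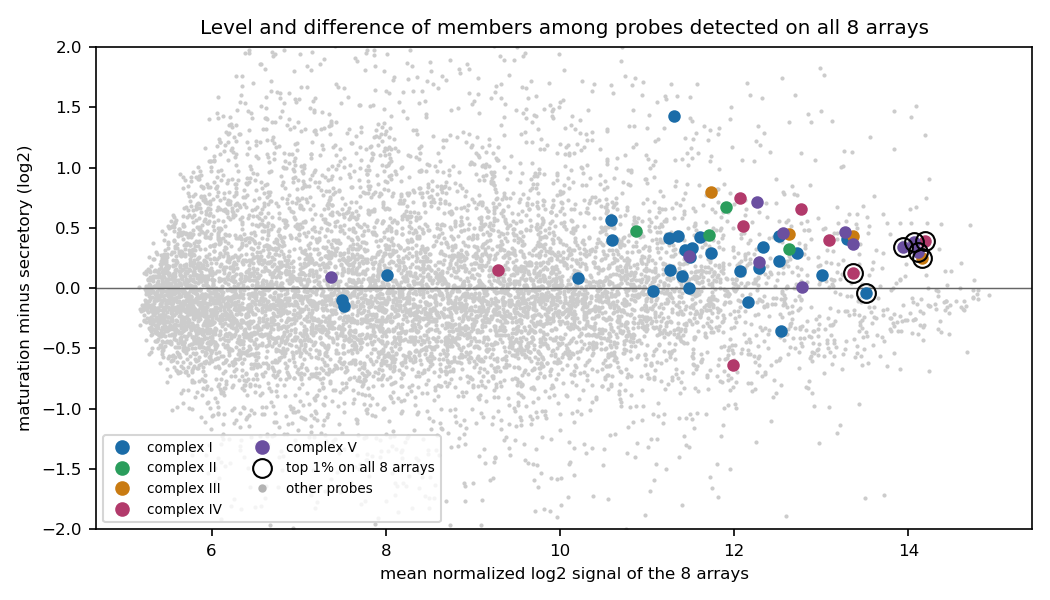
Mean normalized log2 signal over the 8 arrays (x axis) against the log2 difference between the stages (y axis) for the 56 members detected on all 8 arrays, in colour by complex, and all other such probes in grey. The members lie mostly above 0 at high levels, the 7 ringed members bright on all arrays range from -0.043 to 0.39, and 207 probes beyond 2 log2 units are outside the axis.

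Lists of genes around the complexes were counted in the same way, against 12.8% of all probes that rose and 14% that fell. Of the probes detected on all 8 arrays, 24.1% rose and 29.9% fell. Cycs, the somatic cytochrome c, measured 13.08, 13.04, 13.18 and 13.11 in secretory and 13.82, 13.63, 13.64 and 13.78 in maturation samples, a difference of 0.61 (SE 0.066, limma adjusted p 8.98e-05). Cyc1, the cytochrome c1 of complex III, rose by 0.59 and Etfdh, which brings electrons from fatty acid oxidation to coenzyme Q, by 0.50. Of the 8 probes for cytochrome c and other electron entry points these 3 rose, and Dhodh, which feeds coenzyme Q from pyrimidine synthesis, fell by 0.68. The 3 calls among 9 probes for carriers, porins and creatine kinases were all higher. They were Slc25a5 (0.61), an ADP and ATP carrier, Vdac2 (0.37), a porin, and Ckb (0.51), a creatine kinase. These and the genes below with less than a 1.8-fold difference, other than Ppargc1a, Nrf1 and Tfam, were named after their values were seen, since few in each list passed.

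Coenzyme Q synthesis gave the largest difference in this surrounding set. Coq9, a lipid-binding protein of that pathway, rose from 10.92 ± 0.089 to 12.20 ± 0.16 (mean ± SD, n = 4), a difference of 1.28 (SE 0.088, limma adjusted p 4.70e-06). Its other probe, undetected on all secretory arrays, rose too. Coq10a rose by 0.71, and both probes of Coq6, a hydroxylase of the ring, were lower, so that 3 of 11 probes rose and 2 fell. The 4 probes for uncoupling proteins and the ATPase inhibitor gave 0 calls in either direction with limma, and 0 had an unadjusted p below 0.05.

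Of the 20 probes for assembly factors, 3 rose (15%) and 5 fell (25%), with a median of -0.040. The shares were 12.8% and 14% over all probes. Of probes detected on all 8 arrays, as 15 of the 20 were, 24.1% rose and 29.9% fell. Acad9, which is needed to assemble complex I, measured 7.70, 7.99, 7.81 and 7.53 in the secretory and 6.86, 6.75, 7.01 and 6.80 in the maturation stage. It fell by 0.90 (SE 0.10, limma adjusted p 1.16e-04), past 1.8-fold and without overlap. Bcs1l of complex III fell by 0.49, Surf1 and Cox19 of complex IV by 0.30 and 0.21, and Atpaf2 of complex V by 0.25. Cox17, the copper chaperone of complex IV, rose by 0.50, Coa3 by 0.44 and Nubpl, an iron-sulfur factor of complex I, by 0.29.

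Next came the factors that control these genes. Ppargc1a, the coactivator PGC-1 alpha that drives mitochondrial biogenesis in many tissues, was measured close to background at 5.32, 5.66, 5.58 and 5.51 in secretory and 5.99, 5.92, 5.80 and 6.20 in maturation samples. It rose by 0.46 (SE 0.10, limma adjusted p 0.00731) without overlap. Nrf1 was near background with a difference of -0.26 (adjusted p 0.374), and no probe of Esrra was found. Tfam, which packs mitochondrial DNA and starts its transcription, fell by 0.31 (adjusted p 0.00610), Pprc1, a relative of Ppargc1a, by 0.73, and Tfb1m and Mterf by 0.42 and 0.38. Of the 19 probes for regulators, 1 rose (5.26%) and 4 fell (21.1%), and 14 were detected on all 8 arrays. Mitochondrial ribosomal proteins, which translate the mitochondrially encoded subunits, had 11 of 67 probes higher (16.4%), 7 lower and a median of -0.00067. Of the 67, 62 were detected on all 8 arrays, and 24.1% of all probes so detected rose. Mrpl15 (1.16) and Mrps26 (0.88) rose past 1.8-fold.

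**Figure D5:**
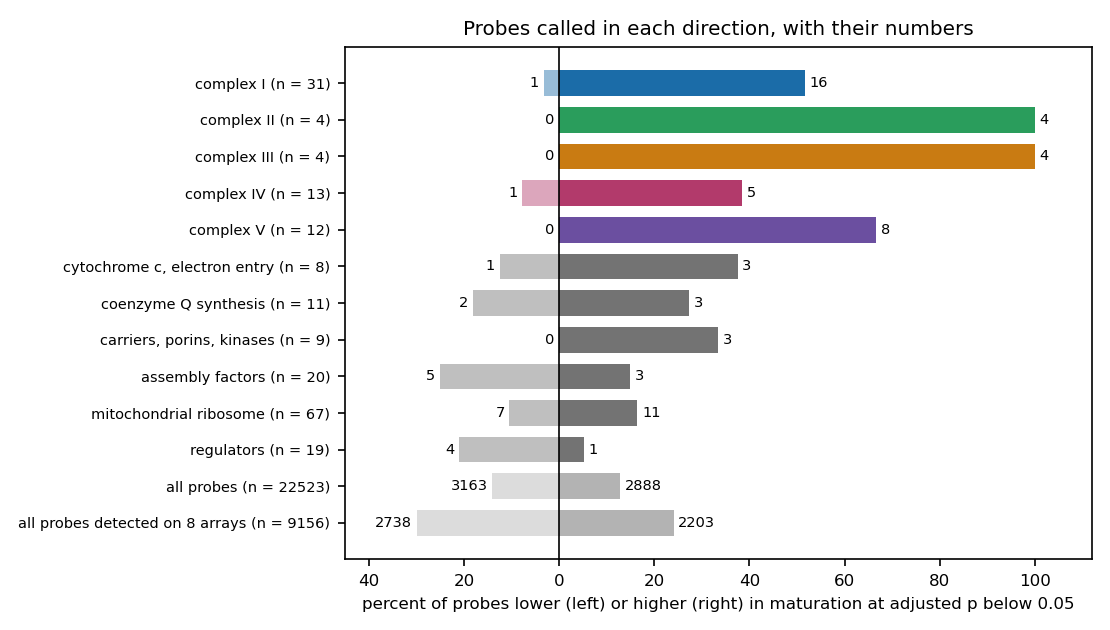
Percent of the probes of each complex and surrounding list called higher (right of 0) or lower (left of 0) in maturation at an adjusted p below 0.05, with the number called at the end of each bar. Complexes II and III are called higher in every probe, and the assembly factors and regulators have more lower than higher calls. All 22523 probes stand at 12.8% and 14%, and those detected on all 8 arrays at 24.1% and 29.9%.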

How the data were processed

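RNA of both stages from 4 rats was hybridized to 8 RatRef-12 arrays. The deposited table gives the mean bead signal as an intensity (no background or between-array correction), beside a detection p-value, a bead count and the standard error of the bead signal for each probe and array. The software and genome build behind it are not given in the sources used here. The 64 members and all gene lists were chosen with earlier results of these data known. Signals were processed in R 4.3.3 with limma 3.58.1: neqc (negative controls inferred from detection p-values, offset 16, quantile normalization, log2), then lmFit and eBayes over 22523 probes with Benjamini-Hochberg adjustment. Calls were made at an adjusted p under 0.05. Chromosomes are those of the array annotation, whose build is not stated. Current symbols and promoters came from RefSeq (GRCr8) by gene ID, which matched 62 members, 19 of them under another symbol. No gene was filtered out before the test.

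Members named in the text are, by complex, the 2 largest rises and falls among called and detected probes, all probes past 1.8-fold, the 2 brightest, all of complex II, subunits with tissue forms, and names that are no subunit. Others were named after their values were seen. Of the members named by the rules, 21 passed. The exact two-sided permutation test over 8 arrays cannot go below p = 0.0286, which every member without overlap reached. On simulated arrays of 22523 probes, limma recovered 48% of 100 probes changed by 0.5 and 90% of 100 changed by 1 (log2) for maturation against secretory, and called 4 unchanged probes. All other simulated probes were unchanged, while 12.8% of probes rose and 14% fell in the data. The adjusted threshold was thus stricter in the simulation, and these shares do not give the power of the real comparison.

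The samples of a rat are paired. Over 11233 probes, deviations from the stage means correlated at 0.195, 0.129, 0.219 and 0.234 within rats 1 to 4. The main comparison was unpaired, because the methods name a Student test without pairing, and a fit with a block for each rat was tried beside it. Other alternatives were the background correction, offset, normalization, a detection filter, the methods' t-test, 1 probe a gene, subunits only, bright members left out, a fold threshold, and each array left out. The backgrounds of probes detected on all 8 arrays were added after the data were seen. Python 3.11.15 and scipy 1.17.1 were used.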

Additional observations from a re-analysis of the deposited data

Results flagged for a closer look

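The median deviation of complex V, the ATP synthase, in secretory replicate 4 was -0.10 on the log2 scale, while the other 3 secretory samples lay between -0.20 and -0.19. It was set apart by its gap to the other samples of its stage, and it remained below all 4 maturation samples, which lay between 0.12 and 0.18. It was 1 of 67 groups of 4 samples examined, of which 3.35 would stand apart by chance.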

How the results depend on the processing

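The naming rules given above, which include the largest called differences and the brightest probes of these data, picked 29 members. Of these 21 passed the threshold, and 19 of the 21 passed it under each of 17 alternative fits. The exceptions were Ndufa1, which turned to 0.015 (adjusted p 0.917) without normalization between arrays and was -0.18 (adjusted p 0.104) with median scaling, and Cox7a2l, at -0.24 (adjusted p 0.101) without normalization. Outside the 29, Ndufa11, Ndufa12, Ndufab1 and Ndufs8 were called and lost the call in at least 1 fit, as given above. Of the 29, Atp5g2, Atp5s, Cox4nb and Cox7b did not pass but were called higher without normalization between arrays. Atp5s and Cox4nb were also called higher with median scaling. The number of members higher was 37 and went from 34 to 36 with an array left out, and to 1 with the 1.8-fold threshold. The number lower was 2, fell to 0 without normalization and with the 1.8-fold threshold, and went from 2 to 4 with an array left out. It was 4 without secretory replicate 2, where Cox6c1 and Ndufa7 were added. With the rat as a block, which uses the pairing, 37 were higher and 3 lower, with Atp5h gained, Ndufa12 lost and Cox6c1 added as lower. Scaling moved the complex medians most: with median scaling they were 0.41, 0.70, 0.55, 0.28 and 0.42 for complexes I to V, and without normalization 0.61, 0.90, 0.75, 0.48 and 0.61, while the median of all probes was -0.072 and 0.13. With cyclic loess complex I was at 0.25 and complex IV at 0.23. Complex IV, with 5 of 13 probes near background, was also 0.27 with the detection filter and ranged from 0.12 to 0.25 with an array left out. Without the bright members complex III was at 0.62 and complex V at 0.22. In the other alternatives the medians moved by less than the spread between replicates. The 8 members not detected on all arrays lay near background, where signal limits what can be measured. Of these Cox6c1 was called lower in the fits named above, with median scaling and without maturation replicate 1, and Cox6c higher without normalization.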

Other observations

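Of the 4 member probes that the array annotation places on the X chromosome, 0 rose and 1 fell, with a median of -0.016: Ndufa1 (-0.36), Ndufb11 (-0.12), a probe of Ndufb4 (0.087) and Cox7b (0.13). The 285 probes on X detected on all 8 arrays had a median of -0.20, 14.7% of them rose and 37.9% fell. These probes were grouped after their values were seen, and the difference from other members was not tested. The other Ndufb4 probe is annotated to chromosome 11. Both Ndufb4 probes carry the same gene ID, which RefSeq (GRCr8) also places on chromosome 11, so Ndufb4 is not X-linked there. Without it the middle value is that of Ndufb11 (-0.12).

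The 21 probes that match the rule only by current symbol include subunits, assembly factors and pseudogenes. Their calls were 2 higher, or 9.52% against 12.8% of all probes, and 2 lower. Those that rose were Ndufaf4 (0.59), an assembly factor of complex I, and Atp5mg (0.25), a membrane subunit of complex V. Ndufaf3 and Ndufaf6, also assembly factors of complex I, fell by 0.41 and 0.21. Cox6b1, the common form of a complex IV subunit, did not pass (0.21, limma adjusted p 0.0576). The median of the 21 was 0.073.

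Cox4i1 and Cox4nb start 148 bases apart on chromosome 19 of GRCr8 and are read in opposite directions, so their promoters share sequence. Cox4i1 rose by 0.40, while Cox4nb stood at 0.15 (limma adjusted p 0.387), and the gap was not tested. It depends on the scaling, since Cox4nb was called higher with median scaling and without normalization between arrays. Over the alternative fits the highest differences were 0.69 for Cox4nb and 0.70 for Cox4i1.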
